A study of Mus musculus with 4 samples.

Results

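Glucagon-producing alpha cells of the pancreatic islet were followed through 8 genes that mark their identity, namely Irx1, Irx2, Pou3f4, Ttr, Gc, Tm4sf4, Slc38a5 and Slc7a2. The genes were taken by name, after Ensembl identifiers were matched to GRCm38 symbols, and all 8 were among the 55421 identifiers counted and among the 21563 genes with enough counts to be tested. RNA came from wild-type C57BL/6 mice, with 2 libraries for normal chow (NCD) and 2 for high-fat feeding (HFD), known to cause obesity and insulin resistance in mice. The labels name the material as macrophages of the islet, while the extraction text begins with frozen isolated islets. The sources used here give neither age nor sex, length of feeding or number of animals per library. Comparing the diets asks which transcripts of the islet preparation changed with feeding.

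Alpha cells secrete glucagon, the hormone that makes the liver release glucose, and they do so in response to falling glucose and to amino acids such as arginine. Homeodomain and POU transcription factors are part of their identity, and liver and alpha cells hold each other in check through circulating amino acids. Several alpha cell genes, among them Ttr, Gc and Tm4sf4, are also strongly expressed in liver.

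The libraries held 56740720 to 64490097 counts. Among the genes listed here, the most abundant in each library were Ins2, Gcg and Iapp, hormone genes of islet endocrine cells. Transcripts outside the gene lists were not ranked. For NCD, the 12 macrophage markers together held 983 and 943 CPM (relative to all counts, without scaling), against 828 CPM for each HFD library. Adgre1, the F4/80 gene of macrophages, is among these markers. Its level was 29.5 and 31.9 CPM for NCD, with 26.4 and 24.3 CPM for HFD. At an adjusted p under 0.05 Adgre1 was not called (log2 change -0.27, edgeR adjusted p = 0.0726). The markers did not all fall, as 3 of the 12 were called higher and 6 lower. Itgam, with the lowest p of this list, was among those higher (log2 change 1.42, edgeR adjusted p = 0.000657). CPM is the usual count normalised to library size, here scaled between libraries by TMM, and means are given ± SD with n = 2 per diet. Gcg, which encodes glucagon, stood at 9037 and 9476 CPM in NCD and at 12809.6 and 13467 CPM in HFD. Both HFD libraries lay above both NCD libraries, a rise of 1.42-fold (log2 change 0.51, SE 0.04, edgeR adjusted p = 0.000452). In bulk RNA, fewer cells of a type and less RNA per cell cannot be told apart, and no label states that libraries of 1 diet are from separate animals, so the p-values reflect how far these libraries scatter, which may be technical.

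The 8 identity genes did not move together. Ttr and Irx1 rose in HFD, Slc7a2 fell, and Irx2, Pou3f4, Gc, Tm4sf4 and Slc38a5 did not pass the test. That makes 2 of 8 higher and 1 of 8 lower at a Benjamini-Hochberg adjusted p under 0.05, where 17.9% of all tested genes were higher and 14.5% lower (32.4% in either direction). The counts of each gene list below are to be read beside the same shares, also where these are not repeated. The diets did not overlap in 6 of the 8 genes, against 67.7% of all tested genes. The median log2 change of the 8 genes was 0.24, beside a median of 0.0026 over all tested genes. Summed over the 8 genes, the libraries held 704 and 723 CPM in the NCD libraries and 816 and 833 CPM in HFD. Without Ttr the sum was 550 and 556 CPM in the NCD libraries and 511 and 514 CPM in HFD, so the higher total in HFD was carried by Ttr, which made up 21.9% and 23.1% of the sum in NCD and 37.4% and 38.3% in HFD.

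**Figure D1:**
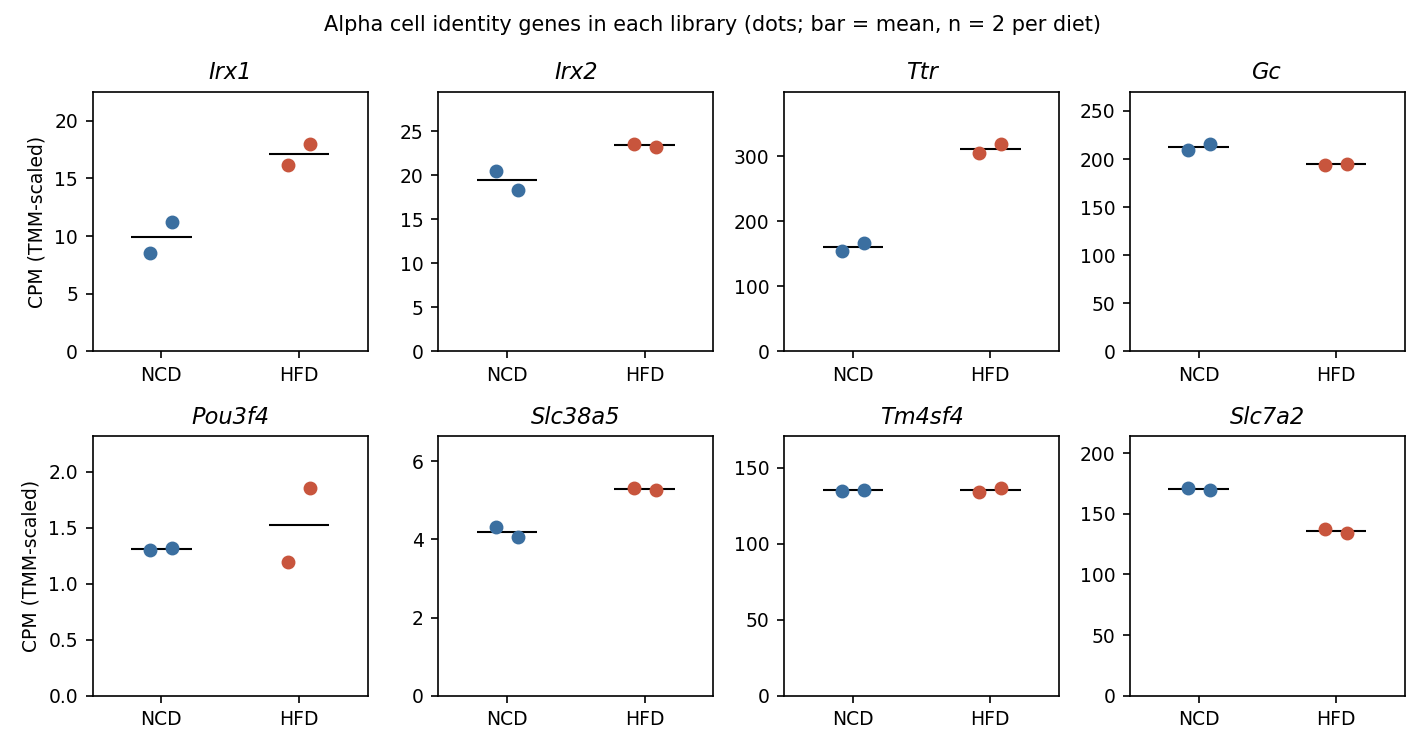
Level of each alpha cell identity gene in CPM after TMM scaling (vertical axis from 0), with 1 dot per library and a bar at the mean of the 2 libraries of a diet. Ttr and Irx1 lie higher in HFD, Slc7a2 lies lower, Tm4sf4 sits between 134 and 137 CPM in all 4 libraries, and the HFD libraries of Pou3f4 lie on both sides of those of NCD.

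Per kilobase of exon the levels spanned a wide range. In NCD, Ttr was the highest at 130 and 141 CPM per kilobase, followed by Gc at 114 and 117 and Tm4sf4 at 90.2 and 90.7. Slc7a2 stood at 18.7 and 18.5 CPM per kilobase, Irx2 at 6.23 and 5.59, and Irx1 at 3.27 and 4.29. Slc38a5, at 1.93 and 1.82, and Pou3f4, at 0.445 and 0.451, were the lowest. No neighbours in this order overlapped between their NCD libraries. The order was the same in HFD, where Irx1, at 6.18 and 6.86 CPM per kilobase, came close to Irx2, at 7.18 and 7.07, without overlap. Ttr, Gc and Tm4sf4 stood at or above 98.1% of tested genes in level per kilobase, and Pou3f4 at or above 21.8% of them. For scale, Gcg stood at 6196 CPM per kilobase in NCD and 8794 in HFD.

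The transcription factors among the 8 are a pair of Iroquois homeodomain proteins and a POU factor. Irx1 and Irx2 lie 665096 bases apart on chromosome 13 (Irx1 at chr13:71957921-71963723 on the minus strand, Irx2 at chr13:72628820-72634198 on the plus strand, GRCm38). Their coding sequences are close relatives in the part that codes for the DNA-binding homeodomain, which is shown because reads from such a stretch could be shared between the genes. The stretches are the most alike 180 coding bases, from base 394 of the Irx1 coding sequence and base 358 of that of Irx2, taken from GENCODE transcripts, with capitals at the bases that differ.
Irx1: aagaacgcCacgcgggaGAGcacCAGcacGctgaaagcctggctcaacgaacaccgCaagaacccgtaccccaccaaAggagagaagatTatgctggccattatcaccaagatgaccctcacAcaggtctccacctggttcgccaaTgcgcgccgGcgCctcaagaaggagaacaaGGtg
Irx2: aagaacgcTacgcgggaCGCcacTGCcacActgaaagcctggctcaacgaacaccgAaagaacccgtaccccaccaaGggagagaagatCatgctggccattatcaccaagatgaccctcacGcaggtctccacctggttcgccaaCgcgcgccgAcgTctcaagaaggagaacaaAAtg
Of the 180 bases 163 are identical and 56 of the 60 codons stand for the same amino acid, yet the longest identical run is 32 bases. No stretch of 50 bases is shared between Irx1 and Irx2 transcripts, and Irx2 shares 16 of its 3324 such stretches with 1 other gene.

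Irx1 stood at 8.56 and 11.2 CPM in NCD and at 16.2 and 18.0 CPM in HFD. Both HFD libraries lay above both NCD libraries, and the NCD libraries themselves were spread. The rise was 1.73-fold (log2 change 0.79, SE 0.17, edgeR adjusted p = 0.0184), which did not pass when HFD replicate 2 was left out (edgeR adjusted p = 0.0633). Irx2 stood at 20.4 and 18.4 CPM in NCD and at 23.6 and 23.2 CPM in HFD. The diets did not overlap, and the difference did not pass the test (log2 change 0.27, SE 0.10, edgeR adjusted p = 0.0957), though DESeq2 called it higher (DESeq2 adjusted p = 0.0226), as did edgeR when genes under a mean of 5 CPM were left out (adjusted p = 0.0484). The count of Irx1 was 0.419 and 0.612 times that of Irx2 in NCD and 0.687 and 0.775 times in HFD. These ratios did not overlap, with a two-sided exact permutation p of 0.333, the smallest that 2 libraries against 2 can give. 

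Of the other Iroquois genes, only Irx3 had enough counts to be tested. It stood at 1.86 and 1.14 CPM in the NCD libraries and 3.25 and 4.19 CPM in HFD, a rise of 2.47-fold (edgeR adjusted p = 0.0320) that did not pass when NCD replicate 2 or either HFD library was left out (edgeR adjusted p = 0.0565 to 0.129), nor with a replicate block (edgeR adjusted p = 0.0641). Irx4 and Irx6 had no count in any library, and Irx5 had a count in HFD only. Irx4, which lies in the same gene cluster as Irx1 and Irx2, is known as a gene of the heart ventricle.

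Pou3f4, also called Brn4, is a POU factor of the early alpha cell lineage in mouse, encoded on chromosome X by a single exon (chrX:110814280-110817207, plus strand). It held 84 and 82 counts in the NCD libraries and 74 and 105 counts in HFD, that is 1.30 and 1.32 CPM against 1.20 and 1.85 CPM. The HFD libraries lay on both sides of the NCD libraries. The test gave a log2 change of 0.22 (SE 0.35, 95% interval -0.65 to 1.08, edgeR adjusted p = 0.690). With these libraries, neither a fall to 0.65 below nor a rise to 1.08 above on the log2 scale could be told from no change. Counts at multiples of 4 were 1.55 to 1.67 times as frequent as their neighbours in each library. The source of this excess was not tested, so low counts may be less precise than they look. Of the other POU class III genes, Pou3f1 did not pass at 0.235 ± 0.128 and 0.407 ± 0.476 CPM, Pou3f2 had a count only in HFD replicate 1, and Pou3f3 had none.

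Ttr and Gc encode carrier proteins of blood plasma. Ttr encodes transthyretin, which carries thyroxine and, bound to retinol-binding protein, vitamin A, and lies on chromosome 18. It stood at 154 and 167 CPM in NCD and at 305 and 319 CPM in HFD. Both HFD libraries were far above both NCD libraries, and the spread within a diet was small beside the difference. The rise of 1.94-fold (log2 change 0.96, SE 0.06, edgeR adjusted p = 0.000309) was at least as large as the changes of 80.02% of tested genes, and it passed in all 13 alternative analyses with all counts as the reference (log2 change 0.90 to 1.02).

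Rbp4, the retinol-binding protein that travels with transthyretin and that delta cells express, rose from 159 ± 4.88 to 191 ± 12.6 CPM (edgeR adjusted p = 0.0275), a rise that did not pass when either NCD library or HFD replicate 2 was left out (edgeR adjusted p = 0.0546 to 0.0981). The Ttr count was 0.990 and 1.03 times the Rbp4 count in NCD and 1.68 and 1.60 times in HFD, without overlap (exact permutation p = 0.333). Of 9 other genes that carry, import or read thyroid hormone and retinol, 4 rose and 2 fell, with a median log2 change of 0.26, and without NCD replicate 1 the number that fell was 4. Dio1, a deiodinase that turns thyroxine into its active form, fell from 114 ± 3.23 to 42.1 ± 4.08 CPM (edgeR adjusted p = 0.000275), and Slc16a10, an aromatic amino acid and thyroid hormone transporter, from 163 ± 4.65 to 117 ± 3.84 CPM (edgeR adjusted p = 0.00212).

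Gc encodes the vitamin D binding protein, which carries vitamin D metabolites in plasma and also binds actin. It stood at 209.7 and 216 CPM in NCD and at 194 and 195 CPM in HFD. Both HFD libraries lay below both NCD libraries, by a small amount that did not pass the test (log2 change -0.13, SE 0.04, edgeR adjusted p = 0.0742), while DESeq2 called it lower (DESeq2 adjusted p = 0.00617). Ttr and Gc, both high in the same libraries, thus differed in their response, and the Ttr count went from 0.735 and 0.776 times the Gc count in NCD to 1.57 and 1.64 times in HFD (exact permutation p = 0.333). Of 6 other genes of vitamin D handling, 1 rose and 1 fell. Vdr, the vitamin D receptor, fell from 91.8 ± 0.396 to 53.2 ± 2.51 CPM (edgeR adjusted p = 0.000687). Cyp27b1, which makes the active hormone, rose from 0.606 ± 0.174 to 1.67 ± 0.356 CPM (edgeR adjusted p = 0.0399), a call lost whichever library was left out (edgeR adjusted p = 0.0519 to 0.183), as well as with a replicate block and without a count filter.

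Because liver expresses Ttr, Gc and Tm4sf4 strongly, 11 hepatocyte markers were read beside them. Their sum was 81.1 and 84.4 CPM in the NCD libraries and 84.1 and 84.7 CPM in HFD (relative to all counts, without scaling), and none of the 11 was at 0. Alb, encoding albumin, stood at 57.8 and 59.0 CPM in the NCD libraries and 55.6 and 52.9 CPM in HFD, without overlap and without passing the test (edgeR adjusted p = 0.265). Per kilobase, Alb stood at 24.9 CPM in the NCD libraries and 23.2 in HFD, against 115 and 105 for Gc. Of the 11 markers 1, the fibrinogen chain gene Fgb, rose, from 5.21 ± 0.368 to 10.2 ± 0.344 CPM (edgeR adjusted p = 0.00581), and the others did not pass, with a median log2 change of 0.0060 over the 11. Only 2 of the 11 averaged at least 5 CPM, so this median rests mostly on genes with few counts. The part of liver RNA in the levels of Ttr, Gc and Tm4sf4 was not tested.

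Tm4sf4 encodes a small membrane protein of the L6 family known as a regulator of cell growth in liver and, in zebrafish, of endocrine cell formation in the pancreas. It stood at 135 and 136 CPM in NCD and at 134 and 137 CPM in HFD. The NCD libraries fell between the HFD libraries. The log2 change was 0.00095 (SE 0.05), with a 95% interval of -0.12 to 0.12, and the test did not pass (edgeR adjusted p = 0.991). Of its 4 relatives, Tm4sf1, a gene of endothelial and other cells, rose from 19.0 ± 0.693 to 54.9 ± 4.90 CPM (edgeR adjusted p = 0.000301). Tm4sf5 rose from 0.173 ± 0.0402 to 1.18 ± 0.277 CPM (edgeR adjusted p = 0.0111), a call lost without HFD replicate 2 (0.0783). Tm4sf19 and Tm4sf20 did not pass (edgeR adjusted p = 0.188 and 0.144). Endothelial markers differed as well, with 4 of 6 higher and 2 lower in HFD (0 to 2 lower when a library was left out), and their part in the level of Tm4sf1 was not tested.

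The windows before the start sites of Gc and Tm4sf4 are shown because these are among the most abundant of the 8 genes and both are shared with liver. The sequences come from RefSeq promoter entries on GRCm38.p6, which cover 5 of the 8 genes, and are printed 5′ to 3′ up to the start of the GENCODE gene, at chr5:89457899-89458148 on the minus strand for Gc and chr3:57425160-57425313 on the plus strand for Tm4sf4. Capitals mark matches on either strand to GTTAATNAT, the half-site and spacer of the liver factor HNF1, and to TGCTGA, the half-site of MAF factors.
Gc: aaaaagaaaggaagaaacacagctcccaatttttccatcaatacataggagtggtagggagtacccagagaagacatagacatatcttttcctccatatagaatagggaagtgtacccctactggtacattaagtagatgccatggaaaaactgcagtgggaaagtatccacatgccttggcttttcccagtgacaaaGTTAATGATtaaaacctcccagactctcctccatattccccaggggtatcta
Tm4sf4: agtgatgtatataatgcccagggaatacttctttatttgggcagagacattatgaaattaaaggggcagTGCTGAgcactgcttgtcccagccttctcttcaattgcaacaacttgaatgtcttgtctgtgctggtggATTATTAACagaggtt
GTTAATNAT was present in both windows and in 0.801% of 32851 promoter windows of 300 bases, and TGCTGA was present in Tm4sf4 and Slc38a5 and in 19.5% of all windows. Neither TAATTA, a homeodomain core found in 5.29% of windows, nor TGTTTAC, a forkhead site found in 3.65%, was present in the windows of Gc, Tm4sf4, Irx2, Pou3f4 or Slc38a5. The motifs were chosen after the sequences had been seen, their matches do not overlap, and a match is a string of letters and no measured binding.

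Slc38a5 and Slc7a2 encode amino acid transporters. Slc38a5 takes up glutamine and other neutral amino acids, and in mice it is induced in alpha cells when glucagon signalling to the liver is blocked and amino acids accumulate. It held 279 and 253 counts in the NCD libraries and 329 and 298 counts in HFD, that is 4.33 and 4.07 CPM against 5.31 and 5.26 CPM. Both HFD libraries lay above both NCD libraries, and the difference did not pass the test (log2 change 0.33, SE 0.17, 95% interval -0.09 to 0.76, edgeR adjusted p = 0.200), nor in any of the 12 alternatives with all counts as the reference.

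Slc7a2 encodes CAT-2, a carrier of arginine, lysine and ornithine that macrophages also induce when they are activated (chr8:40862396-40922308, plus strand). It stood at 171 and 169 CPM in NCD and at 137 and 134 CPM in HFD. Both HFD libraries lay below both NCD libraries with little spread within a diet. The level fell by 0.33 on the log2 scale (SE 0.05, edgeR adjusted p = 0.00483) and the fall passed in all 13 alternatives with all counts as the reference. Of its 9125 stretches of 50 bases, 6.42% also occur in transcripts of other genes. Its first part overlaps the antisense RNA Gm26584 over 635 exonic bases, and the sources used here do not say how strand was handled in the counting.

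Slc7a1, the widely expressed carrier of the same amino acids, stood at 246 and 241 CPM in the NCD libraries and 229 and 214 CPM in HFD, without overlap, and did not pass (edgeR adjusted p = 0.104). The count of Slc7a2 was 0.694 and 0.702 times that of Slc7a1 in NCD and 0.598 and 0.626 times in HFD (exact permutation p = 0.333). Macrophage markers beside these genes summed to 983 and 943 CPM in the NCD libraries and 828 and 828 CPM in HFD, with 3 of 12 higher, 6 lower and none at 0, and their part in the fall of Slc7a2 was not tested. Leaving out a library gave 1 or 2 macrophage markers higher and 3 to 6 lower. The acinar markers, of which 10 of 11 rose, summed to 412 and 432 CPM in the NCD libraries and 2730 and 3090 CPM in HFD. The part of acinar RNA in the level of Slc7a2 was not tested.

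Other amino acid transporters moved in both directions. Of 10 other SLC38 genes 3 rose, 3 fell and 4 did not pass, with a median log2 change of -0.01. Of all tested genes 17.9% were higher and 14.5% lower. Slc38a1, a glutamine carrier of neurons and lymphocytes, rose from 13.6 ± 0.239 to 49.8 ± 4.02 CPM (edgeR adjusted p = 0.000173), and Slc38a2, which cells induce when amino acids are scarce, from 391 ± 4.50 to 553 ± 6.03 CPM (edgeR adjusted p = 0.000518). Slc38a4 fell from 319 ± 10.5 to 233 ± 1.11 CPM (edgeR adjusted p = 0.00133) and the lysosomal transporter gene Slc38a7 from 135 ± 5.24 to 85.5 ± 3.48 CPM (edgeR adjusted p = 0.00109). Lymphocyte markers moved in the same libraries, with all 6 B cell markers and all 5 T cell markers higher in HFD and none at 0. The B cell markers summed to 552 and 549 CPM in NCD against 3674 and 3716 CPM in HFD, and the T cell markers to 3.66 and 3.57 against 43.2 and 40.2 CPM. Their part in the rise of Slc38a1 was not tested.

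Of 16 other SLC7 genes and SLC3 partner genes 13 were tested, of which 2 rose and 4 fell, with a median log2 change of -0.14. The shares over all tested genes were 17.9% higher and 14.5% lower. Slc7a11, the cystine importer, rose from 83.5 ± 2.06 to 403 ± 17.5 CPM (edgeR adjusted p = 3.86e-05), and Slc7a7, which exports cationic amino acids, from 12.4 ± 0.829 to 21.8 ± 2.10 CPM (edgeR adjusted p = 0.00587). Slc7a14 fell from 623 ± 26.4 to 382 ± 7.59 CPM (edgeR adjusted p = 0.00036), Slc7a8, a carrier of neutral amino acids, from 165 ± 1.91 to 110 ± 2.56 CPM (edgeR adjusted p = 0.000811), and Slc7a5, the large neutral amino acid carrier, from 378 ± 6.04 to 282 ± 5.66 CPM (edgeR adjusted p = 0.00125). Slc3a2, the heavy chain that Slc7a5, Slc7a8, Slc7a7 and Slc7a11 need at the membrane, fell from 853 ± 5.44 to 704 ± 49.0 CPM (edgeR adjusted p = 0.0137).

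**Figure D2:**
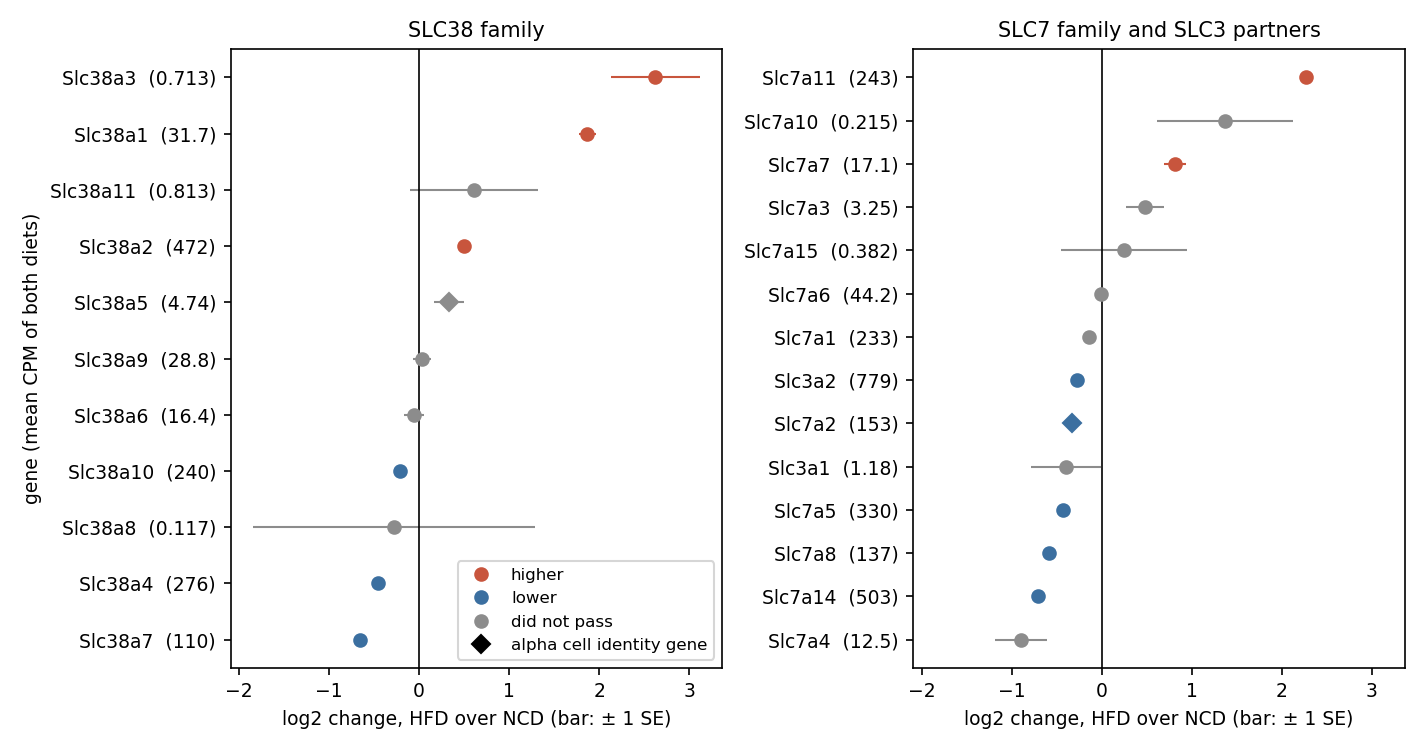
Log2 change of each tested SLC38 gene (left) and SLC7 or SLC3 gene (right) in HFD over NCD, with bars of 1 SE and the mean CPM of both diets in brackets. Diamonds mark Slc38a5, which did not pass, and Slc7a2, which was lower; the SLC7 panel runs from Slc7a11 with the highest value to Slc7a4, which did not pass.

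Among 10 other alpha cell genes 7 rose, none fell and 3 did not pass, with a median log2 change of 0.68. The largest rises in this list were those of Loxl4, from 0.323 ± 0.0698 to 2.65 ± 0.0242 CPM, of Fap, from 1.27 ± 0.211 to 6.34 ± 0.603 CPM, and of F10, from 5.13 ± 0.582 to 15.5 ± 0.803 CPM (edgeR adjusted p = 0.00213, 0.00139 and 0.00108). These are known as alpha cell genes mainly from human islets, and Fap is also a marker of activated fibroblasts. All 7 fibroblast markers rose, their sum going from 118 and 118 CPM in the NCD libraries to 1229 and 1260 CPM in HFD with none at 0, and their part in the rises of Fap and Loxl4 was not tested. Leaving out a library gave 5 or 6 of the 10 genes higher and none lower.

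Transcription factors known from several islet endocrine cell types mostly went the other way. Of 11 such genes none rose, 7 fell and 4 did not pass, with a median log2 change of -0.31, and 5 to 8 fell when a library was left out. Myt1 fell from 86.7 ± 0.0929 to 47.6 ± 0.0996 CPM (edgeR adjusted p = 0.000387), Nkx2-2, which in mice is needed for beta and most alpha cells, from 90.5 ± 3.03 to 56.1 ± 0.594 CPM (edgeR adjusted p = 0.000886), Rfx6 from 165 ± 3.79 to 106 ± 6.66 CPM (edgeR adjusted p = 0.00129) and Insm1 from 324 ± 1.99 to 245 ± 5.37 CPM (edgeR adjusted p = 0.00156). Of 12 beta cell markers 10 fell and none rose. Of 5 delta cell markers 2 rose, 1 fell and 2 did not pass, with a median log2 change of 0.13 (0 or 1 rose when a library was left out), and both pancreatic polypeptide cell markers fell. The hormone genes of these cells were among those that fell, Sst from 3912 ± 133 to 3304 ± 114 CPM and Ppy from 417 ± 9.57 to 316 ± 5.56 CPM (edgeR adjusted p = 0.00630 and 0.00150). The Gcg count was 0.924 and 0.958 times the Ins2 count in NCD and 1.54 times in both HFD libraries (exact permutation p = 0.333).

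**Figure D3:**
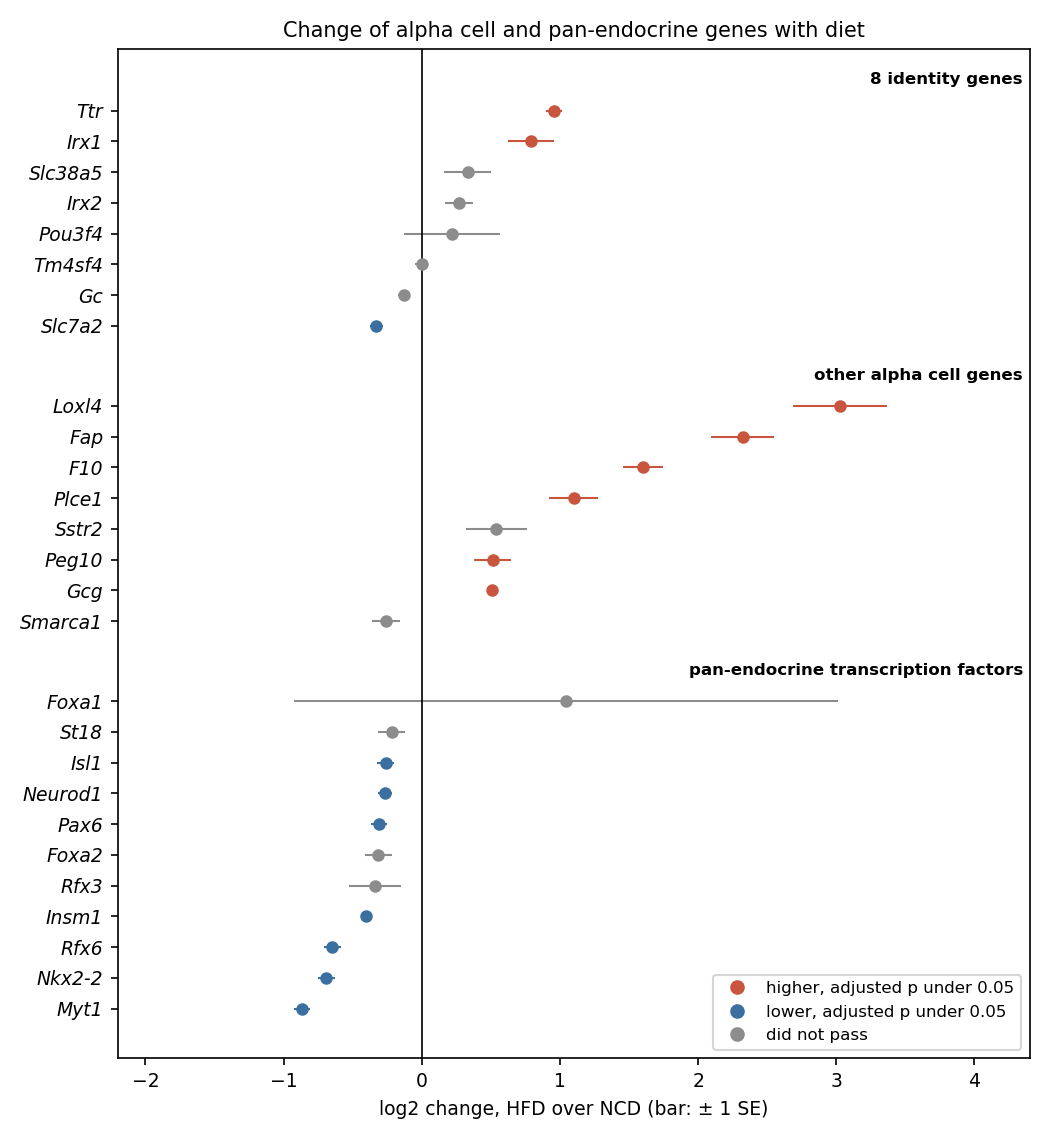
Log2 change in HFD over NCD with bars of 1 SE for the 8 identity genes, 8 of the 10 other alpha cell genes and 11 pan-endocrine transcription factors. The identity genes run from Ttr at 0.96 to Slc7a2 at -0.33, 6 of the other alpha cell genes shown are called higher, and 7 of the pan-endocrine factors are called lower; Foxa1, with few counts, has a wide bar.

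The level of an alpha cell gene relative to all RNA and its level relative to other islet transcripts are different quantities. The sign of the change depended on the reference for each of the 8 genes except Ttr and Irx1. Per 1000 Gcg counts, Ttr stood at 17.1 and 17.7 in NCD and 23.8 and 23.7 in HFD, and Irx1 at 0.947 and 1.18 in NCD and 1.26 and 1.34 in HFD. Slc7a2 stood at 18.9 and 17.8 per 1000 Gcg counts in the NCD libraries and 10.7 and 9.93 in HFD, Gc at 23.2 and 22.8 and then 15.1 and 14.5, and Tm4sf4 at 14.9 and 14.3 and then 10.5 and 10.2. Ttr and Irx1 thus lay higher in HFD per Gcg count, and Slc7a2, Gc and Tm4sf4 lower, with no overlap between diets. Irx2, Slc38a5 and Pou3f4 also lay lower in HFD without overlap. For Pou3f4 the gap was narrow, from 0.144 and 0.139 for NCD to 0.0933 and 0.138 for HFD. Irx2, Slc38a5 and Pou3f4 did not pass in edgeR with this reference (adjusted p = 0.149, 0.480 and 0.512). The shares of all tested genes without overlap per Gcg count, or called with this reference, were not computed. With library sizes set by the Gcg count, edgeR called Ttr higher (log2 change 0.45, adjusted p = 0.00123) and Gc, Tm4sf4 and Slc7a2 lower (log2 changes -0.64, -0.50 and -0.83, adjusted p = 0.000494, 0.00122 and 0.000385), and Irx1 did not pass (log2 change 0.29, adjusted p = 0.169).

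Relative to the summed pan-endocrine transcription factors, all 8 genes had positive log2 changes, from 0.09 for Slc7a2 (edgeR adjusted p = 0.191) to 1.38 for Ttr (edgeR adjusted p = 5.37e-05). Irx1, Irx2, Gc, Slc38a5 and Tm4sf4 also passed as higher with this reference, at log2 changes of 1.21, 0.69, 0.29, 0.75 and 0.42, while Pou3f4 did not (edgeR adjusted p = 0.195). The share of all tested genes called with this reference was not computed either. A reference shifts every gene by nearly the same amount, and the median of all tested genes moved to -0.50 with the Gcg reference and to 0.42 with the transcription factor reference. The order of the 8 genes among themselves was therefore the same under each reference, with Ttr and Irx1 at the top and Slc7a2 at the bottom. Tm4sf4, at -0.50 with the Gcg reference and 0.42 with the transcription factor reference, lay close to the median of all tested genes in both.

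**Figure D4:**
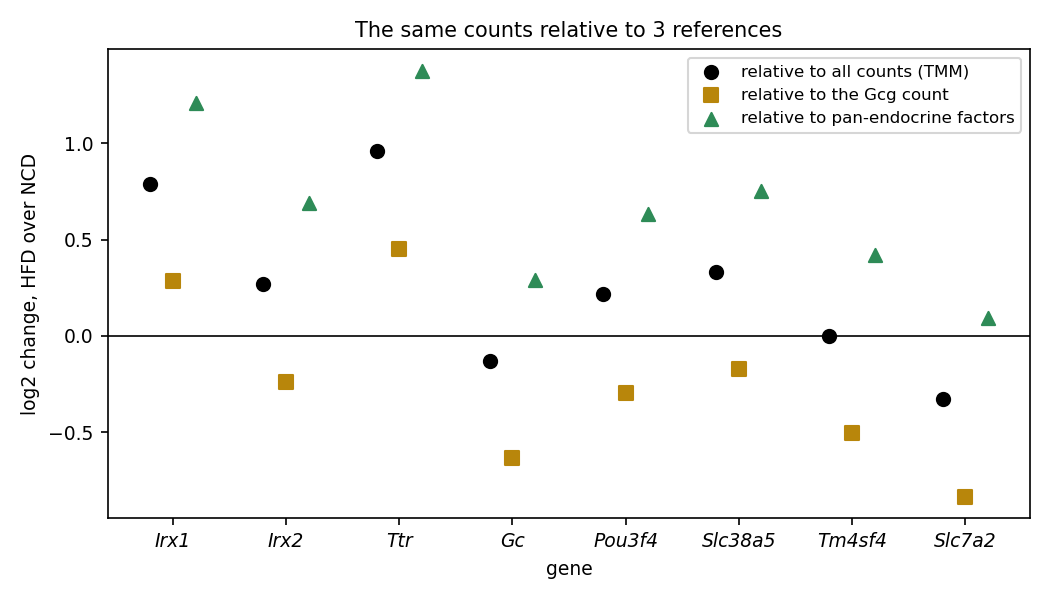
Log2 change in HFD over NCD of the 8 identity genes with 3 references, all counts after TMM scaling (circles), the Gcg count (squares) and the sum of 11 pan-endocrine transcription factors (triangles). With Gcg as the reference only Ttr and Irx1 lie above 0, and with the transcription factors all 8 do.

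**Figure D5:**
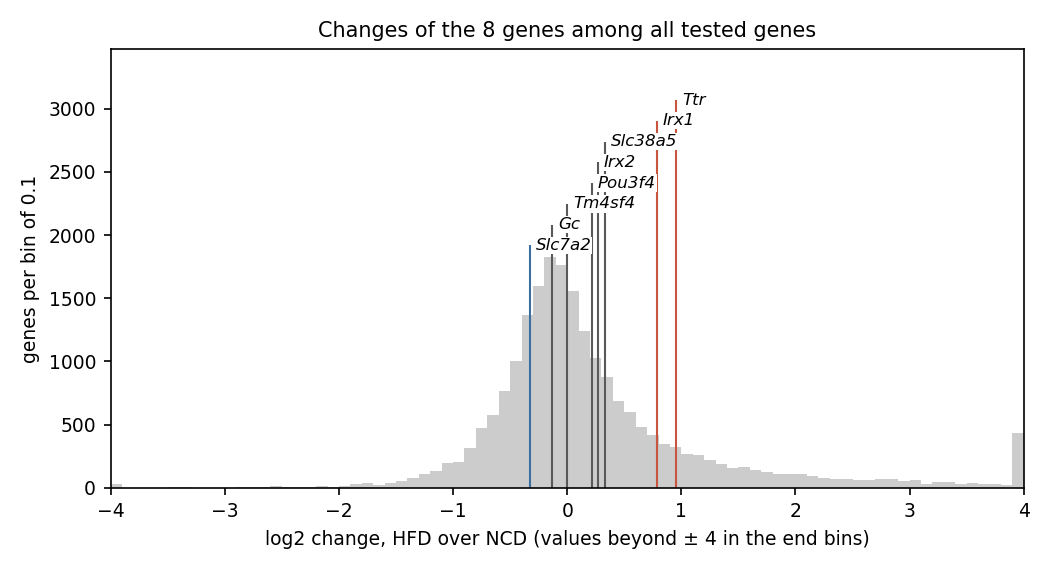
Distribution of the log2 change in HFD over NCD over 21563 tested genes (grey bars, bins of 0.1) with the 8 identity genes as lines, coloured by call. Ttr, at 0.96, lies above 84.3% of genes and Slc7a2, at -0.33, above 23.6%.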

How the data were processed

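Total RNA of 4 libraries was measured by RNA sequencing, 2 per diet, grouped by their titles. The authors deposited whole-number counts per Ensembl gene, 1 table per library. The submitters' processing notes name HISAT, featureCounts 1.5.0, DESeq 1.8.3 and GRCm38 without roles or settings, and the sources used here do not say how multi-mapping reads were counted. Symbols, coordinates and exonic lengths came from GENCODE release M21 (GRCm38), which matched 55154 of the identifiers. The libraries held 64490097 and 62171973 counts in NCD and 61855337 and 56740720 in HFD. Intervals give the uncertainty of a log2 change as estimated from the scatter of these libraries, which may be technical.

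Genes passing filterByExpr of edgeR 4.0.16 (minimum count 10, R 4.3.3) were scaled by TMM and tested for diet with the quasi-likelihood F test and no block for replicate number, with Benjamini-Hochberg adjustment over all 21563 genes at 0.05. The SE is the size of the log2 change over the square root of F, and intervals use the test's 5.46 degrees of freedom without adjustment for the number of genes. CPM used TMM-scaled library sizes, except sums over marker lists. CPM per kilobase used the merged exonic length. Ratios were tested by exact permutation. On simulated counts with known changes over 21563 genes, the test recovered 0% of 50 genes changed 1.25-fold, 28% at 1.5-fold, 72% at 2-fold and 82% at 4-fold, with 12 calls among unchanged genes. Only these genes, drawn from those averaging at least 50 counts, were changed, while 32.4% of tested genes were called in the data. The adjusted threshold was therefore stricter in the simulation, and its rates do not carry over to these data.

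The members, lists, tests and alternatives were chosen with earlier results of these data known. Named genes were the 8 members, the tested genes with the lowest p of every list, 4 at most, and a fixed set (Gcg, Irx3, Slc38a4, Slc7a1, Slc3a2, Rbp4, Alb, Adgre1, Ins2 and Cpa1). Some genes that this rule names are not reported here, though the list counts include them. Others named, such as untested family members, were chosen after their values were seen. Alternatives were DESeq2's size factors, DESeq2 1.42.0, limma-voom (limma 3.58.1), all genes kept, only genes averaging 5 CPM or more, a block for replicate number, each library left out in turn, endocrine, acinar and most-counted genes taken out of the library sizes, no scaling, counts divided by 4, a 2-fold threshold, and library sizes set by Gcg or by pan-endocrine transcription factors.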

Additional observations from a re-analysis of the deposited data

How the results depend on the processing

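With all counts as the reference, Ttr stayed higher and Slc7a2 lower past the threshold in all 13 alternatives run, and Irx1 in 12 of 13. The number of the 8 genes called higher was 2 in most alternatives, 3 with DESeq2's Wald test or a mean of at least 5 CPM, 1 to 2 when a library was left out and 0 at a change of at least 2-fold; the number lower was 1, but 2 with the Wald test and 0 at 2-fold. Over all genes a 2-fold threshold left 2160 higher and 287 lower of 3860 and 3123. Signs that turned were those of Tm4sf4 (log2 change -0.00102 without a count filter, -0.000105 with counts divided by 4, -0.0118 to 0.0242 without a library) and Pou3f4 (-0.13 to 0.51 without a library), with values near 0 or few counts. With the Gcg reference the log2 change was -0.24 for Irx2, -0.29 for Pou3f4, -0.17 for Slc38a5 and -0.50 for Tm4sf4, and with the transcription factor reference 0.29 for Gc and 0.091 for Slc7a2, which follows from the shift of all genes by the reference. Replicate numbers share only a number: the replicate differences of the diets had r = -0.0246 across genes, which are not independent, and a replicate block gave 3252 genes higher and 2583 lower, with 2 and 1 of the 8 genes. When a diet kept 1 library, it was assumed to vary like the other diet. Pou3f4 and Slc38a5 have too few counts for the 5 CPM filter. Least can be said of Pou3f4, which had the fewest counts and the largest SE of the 8 genes (0.35). Depth was not separated from scatter between libraries.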

Other observations

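Of 9 genes that use or make arginine, a substrate of Slc7a2, 5 rose, 1 fell and 3 did not pass, with a median log2 change of 0.60, where 17.9% of all tested genes were higher and 14.5% lower; leaving out a library gave 5 or 6 higher and 0 or 1 lower. Nos2, the inducible nitric oxide synthase, rose from 3.52 ± 0.0877 to 10.7 ± 0.313 CPM (edgeR adjusted p = 0.00105), Nos3, the endothelial enzyme, from 33.5 ± 1.45 to 50.9 ± 1.58 CPM (edgeR adjusted p = 0.00276), and Ass1, which recycles citrulline towards arginine, from 10.8 ± 1.67 to 26.0 ± 4.82 CPM (edgeR adjusted p = 0.00481). Odc1, which starts polyamine synthesis, rose from 308 ± 7.06 to 366 ± 2.70 CPM (edgeR adjusted p = 0.00722). In the same libraries 4 of 6 endothelial markers were higher and 2 lower. The 6 summed to 1362 and 1387 CPM in NCD against 1699.5 and 1672 CPM in HFD, with none at 0. All 6 B cell and 5 T cell markers were higher as well, and the part of these cell types in the rises was not tested.

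The gene whose profile over the 4 libraries was nearest to that of each identity gene, among 11920 genes averaging 5 CPM or more, was Rras for Ttr, with a root mean square difference of 0.0135 in centred log2 CPM, Fam129c for Irx1 (0.0224), Chd7 for Irx2 (0.00459), Slc10a7 for Pou3f4 (0.0311), Chrac1 for Gc (0.00230), Wwp1 for Tm4sf4 (0.00345), Tent2 for Slc38a5 (0.00572) and Pdzk1ip1 for Slc7a2 (0.00415). With only 4 libraries many genes lie this near, from 32 within 0.1 of Pou3f4 and 37 of Irx1 to 3428 within 0.1 of Gc.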
